A study of Drosophila melanogaster with 16 samples.

Results

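The 10 genes described here encode peptidoglycan recognition proteins (PGRPs) of Drosophila melanogaster: PGRP-SC1a, PGRP-SC1b, PGRP-SC2, PGRP-LB, PGRP-LC, PGRP-LE, PGRP-LF, PGRP-LA, PGRP-SA and PGRP-SD. They were taken by gene symbol, as the catalytic and receptor members of the family, from the 17753 genes listed in each of 16 libraries of polyadenylated RNA from whole embryos. The files list 13 genes with a PGRP symbol; the other 3 are PGRP-LD, PGRP-SB1 and PGRP-SB2. The groups were wild-type OregonR embryos aged 14 to 17 h (5 libraries), Lola-I mutant embryos labelled ORC4 of that age (4 libraries), Lola-I mutant transheterozygous embryos labelled ORE50/ORC4 of that age (4 libraries), and wild-type OregonR embryos aged 2 to 4 h (3 libraries). The labels do not describe the ORC4 and ORE50 alleles further, nor how many embryos were pooled. Lola-I is an isoform of the transcription factor gene lola, which the series' title calls a promoter pioneer factor.

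PGRPs bind peptidoglycan, the polymer of bacterial cell walls. In the fly, PGRP-LC and PGRP-LE are receptors of the Imd pathway, and PGRP-SA and PGRP-SD act upstream of the Toll receptor; both pathways induce antimicrobial peptide genes. PGRP-SC1a, PGRP-SC1b, PGRP-SC2 and PGRP-LB are amidases that cleave peptidoglycan and so dampen Imd signalling, above all in the gut, while PGRP-LF is a membrane protein that inhibits PGRP-LC.

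Library totals ran from 9025882 to 32521626 estimated counts. All ORC4 libraries were above 20000000 counts (27298377 to 28832013) and all ORE50/ORC4 libraries below it (9025882 to 13226262), whereas wild-type replicates 1, 2 and 3 at 14 to 17 h were above it and replicates 5 and 6 below it. Depth and genotype therefore cannot be told apart between the 2 mutants. A model with depth class separates them only through the wild-type libraries. The lola gene as a whole had a mean of 42.2 ± 4.30 TPM (transcript abundance scaled to length and library; SD, n = 5) in wild type at 14 to 17 h, 49.7 ± 9.75 (n = 4) in ORC4, 29.9 ± 4.69 (n = 4) in ORE50/ORC4 and 102 ± 2.48 (n = 3) in wild type at 2 to 4 h. That value pools all isoforms and does not check the isoform named in the labels. The Imd pathway member Fadd and the Toll pathway member pll were listed at 0 in all 16 libraries, so a listed 0 may be a failed estimate as well as a missing transcript.

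In wild-type embryos aged 14 to 17 h the receptor gene PGRP-LE was the best expressed member. Per kilobase of exon, in CPM (estimated counts scaled to the library total), PGRP-LE had a level of 15.0 ± 1.23 (SD, n = 5), and its lowest library (12.99) lay above the highest of every other member. PGRP-LC (8.11 ± 0.456), PGRP-LB (7.36 ± 2.28), PGRP-LA (6.99 ± 1.38), PGRP-LF (6.87 ± 1.03) and PGRP-SC2 (6.29 ± 2.35) followed, and each of these levels overlapped the next in the order. PGRP-SC1a (2.19 ± 1.19), PGRP-SD (0.784 ± 0.582), PGRP-SA (0.234 ± 0.0588) and PGRP-SC1b (0.0353 ± 0.0269) came last. PGRP-SC1a overlapped both PGRP-SC2 and PGRP-SD, PGRP-SD overlapped PGRP-SA, and PGRP-SA did not overlap PGRP-SC1b.

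The order differed in the mutants. In ORC4, PGRP-LE (12.8 ± 1.39 CPM per exonic kilobase; SD, n = 4), PGRP-LA (8.12 ± 1.37) and PGRP-LC (6.60 ± 0.171) led without overlap between neighbours, PGRP-LF was at 1.88 ± 0.128, and PGRP-SC2 was seventh at 0.312 ± 0.0829. In ORE50/ORC4 the same 3 genes led, with PGRP-LE at 14.6 ± 1.60 (n = 4), PGRP-LA at 9.97 ± 1.55 and PGRP-LC at 6.39 ± 0.493, again without overlap between neighbours. PGRP-LF (1.03 ± 0.191), PGRP-LB (0.985 ± 1.29) and PGRP-SC2 (0.322 ± 0.240) were all lower in the ORE50/ORC4 order than PGRP-SD (1.95 ± 0.792), which overlapped PGRP-LF.

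**Figure D1:**
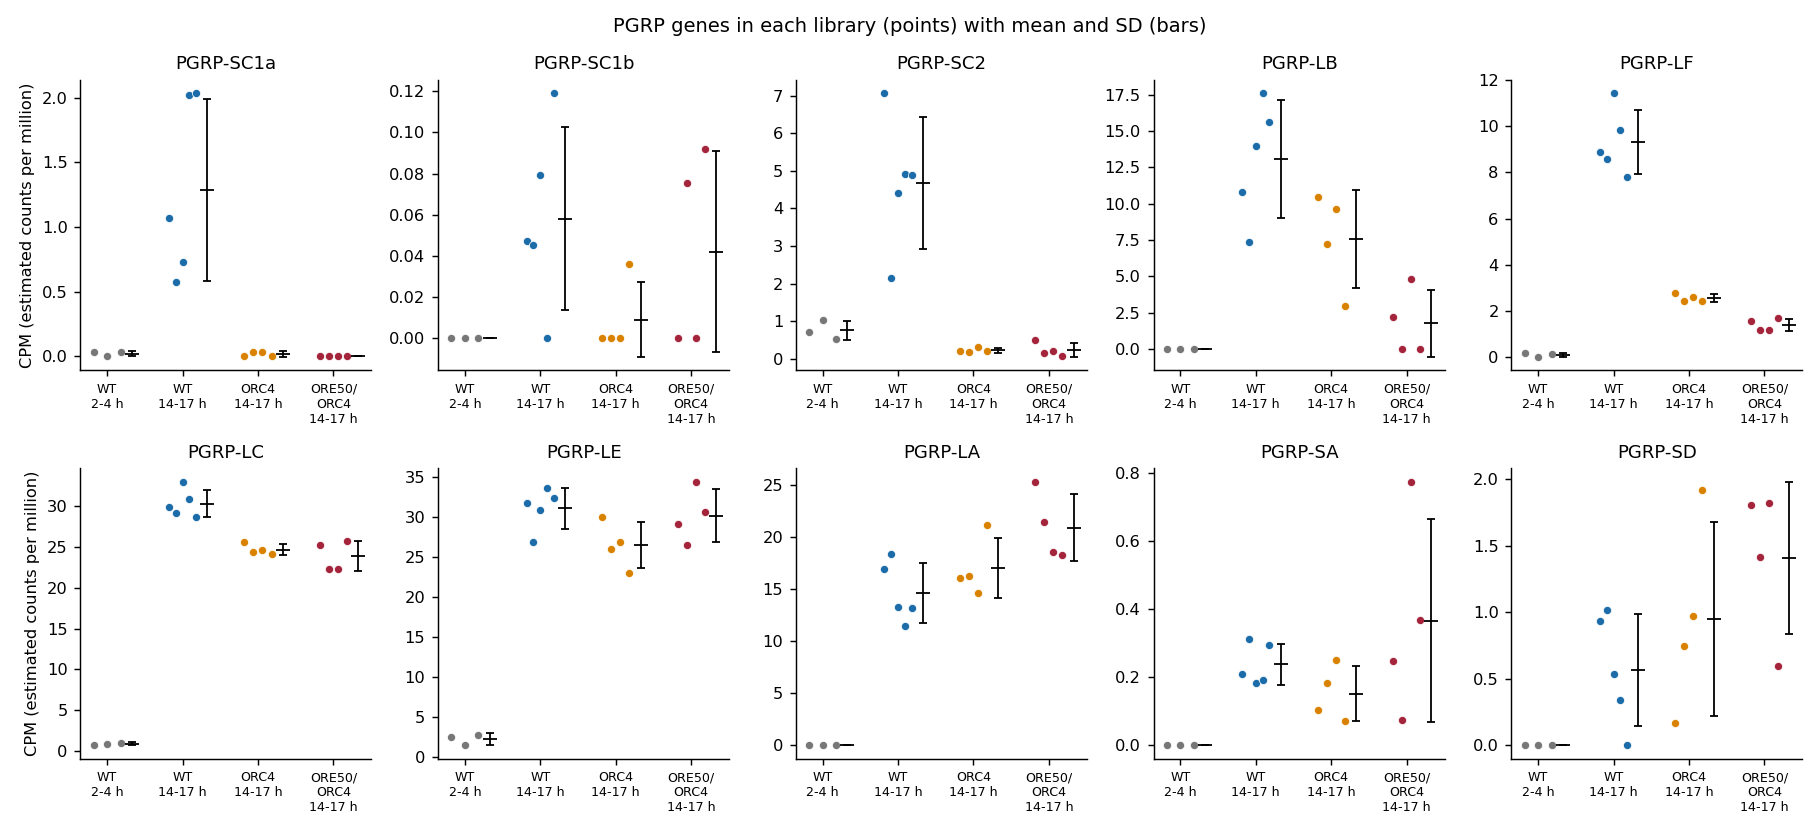
Level of each of the 10 PGRP genes in CPM (linear axis, a separate scale per panel) in every library of the 4 groups; points are libraries, and the bar beside them is the mean with its SD, which can reach below 0. PGRP-SC1a, PGRP-SC2 and PGRP-LF are lower in all 8 mutant libraries than in all 5 wild-type libraries of the same age, and PGRP-LE, PGRP-LA, PGRP-SA and PGRP-SD overlap between mutants and wild type.

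The 3 PGRP-SC genes, small secreted amidases, lie on 1 strand of chromosome arm 2R (dm6, Ensembl annotation): PGRP-SC1a at 8709733 to 8710320, PGRP-SC1b at 8713446 to 8715094 and PGRP-SC2 at 8716950 to 8717695. Each is annotated as a single exon. PGRP-SC1a and PGRP-SC1b are near-identical, so reads can be split between them, and fractional counts occurred in 4 of 16 libraries for each. PGRP-SC1b itself held at most 2.57 estimated counts in a library and was not tested.

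PGRP-SC2 was much lower in both mutants. In wild type at 14 to 17 h, replicates 1, 2, 3, 5 and 6 held 203, 62, 143.8, 51 and 50 estimated counts, or 29.2, 8.90, 17.8, 20.1 and 20.1 TPM. The 4 ORC4 libraries held 6, 5, 9 and 6 counts (0.854, 0.777, 1.32 and 0.943 TPM), and the 4 ORE50/ORC4 libraries held 6, 2, 2 and 1 counts (1.88, 0.644, 0.813 and 0.357 TPM). No mutant library reached the lowest wild-type library. PGRP-SC2 passed the filter on low counts only through wild type, so its direction against wild type was fixed by passing it. The log2 fold change against wild type was -4.33 (SE 0.40, edgeR adjusted p = 3.43e-06) in ORC4 and -4.23 (SE 0.45, edgeR adjusted p = 8.70e-06) in ORE50/ORC4, where it was -4.89 without ORE50/ORC4 replicate 1. Against wild type of like depth it was -4.27 (edgeR adjusted p = 5.23e-05) and -4.32 (edgeR adjusted p = 4.59e-05). Whole embryos were sampled, so fewer cells that make a transcript and less transcript per cell cannot be told apart for this or any other gene here.

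PGRP-SC1a nearly disappeared from the mutant libraries. The wild-type replicates 1, 2, 3, 5 and 6 held 30.6, 16.7, 23.6, 21 and 20.8 estimated counts, which is 6.20, 3.37, 4.11, 11.7 and 11.7 TPM; the 2 shallower libraries had the highest TPM. The ORC4 libraries held 0, 1, 1 and 0 counts, and all 4 ORE50/ORC4 libraries held 0. Relative to library totals, the summed wild-type level was 56.9 times that of ORC4 (exact 95% interval 15.4 to 476, counting error only). Against ORE50/ORC4 it was at least 15.4-fold higher, with 3 counts over the group as the floor. The adjusted p of the edgeR test was 0.000288 for ORC4 and 0.000479 for ORE50/ORC4, and 0.000719 and 0.000561 against wild type of like depth. Summing PGRP-SC1a and PGRP-SC1b gave a ratio of 40.1 (13.4 to 197) for wild type over ORC4 and 24.3 (6.58 to 203) over ORE50/ORC4, with edgeR adjusted p = 4.03e-05 and 0.000221. PGRP-SC1a and the sum passed the filter on low counts only through wild type, so their direction against wild type was fixed by passing it.

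PGRP-LB, an amidase with both secreted and intracellular forms, spans 11452849 to 11460552 on the minus strand of chromosome arm 3R. It lies wholly inside CG17230, a gene on the opposite strand, and shares no exonic base with it. The listed length of both genes is the whole span with introns, counts were fractional in 11 of 16 libraries, and strand use is not given in the sources used here, so reads may be shared between the pair.

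PGRP-LB held 309.5, 212.7, 454.8, 183.0 and 159.1 estimated counts in the wild-type replicates 1, 2, 3, 5 and 6 (3.24, 2.23, 4.10, 5.27 and 4.65 TPM). The ORC4 replicates 1 to 4 held 302.2, 197.8, 268.6 and 81.0 counts (3.13, 2.24, 2.86 and 0.927 TPM), and those of ORE50/ORC4 held 26.1, 0, 43.6 and 0 counts (0.598, 0, 1.29 and 0 TPM). ORC4 overlapped wild type, and every ORE50/ORC4 library was below every wild-type library. The log2 fold change was -0.81 (SE 0.64, edgeR adjusted p = 0.358) in ORC4, with a 95% interval that includes no change, and -2.96 (SE 0.78, edgeR adjusted p = 0.00633) in ORE50/ORC4. Directly between the mutants it was -2.15 (SE 0.80, edgeR adjusted p = 0.0487). That last call was lost without any of ORC4 replicates 1, 2 and 3 or ORE50/ORC4 replicates 1, 2 and 4, with values from -1.69 to -2.32 and edgeR adjusted p from 0.0817 to 0.104 across those 6 fits. The value rests most on ORE50/ORC4 replicate 3, without which it was -3.35 against ORC4 and -4.14 against wild type; the smallest change against wild type on leaving out 1 library was -2.49.

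The enclosing gene CG17230 had 26.7 ± 4.94 CPM (SD, n = 5) in wild type, 24.6 ± 1.33 (n = 4) in ORC4 and 25.3 ± 3.60 (n = 4) in ORE50/ORC4, and was not called in either mutant (edgeR adjusted p = 0.340 and 0.637). PGRP-LB took 17.7% to 44.6% of the counts of the pair in wild type, 11.2% to 28.8% in ORC4 and 0% to 19.4% in ORE50/ORC4. The sum of the pair was 39.8 ± 1.57 (wild type), 32.2 ± 4.64 (ORC4) and 27.0 ± 2.13 (ORE50/ORC4) CPM, and spread less among wild-type libraries than either gene did. Tested as 1 feature, a choice made after seeing the data, the pair fell by 0.34 on the log2 scale in ORC4 (SE 0.09, edgeR adjusted p = 0.0154) and by 0.55 in ORE50/ORC4 (SE 0.10, edgeR adjusted p = 0.000455). The summed pair of ORE50/ORC4 against ORC4 stood at -0.21 on the log2 scale (SE 0.10, edgeR adjusted p = 0.119).

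PGRP-LF, the inhibitor of PGRP-LC, lies on the plus strand of 3L at 9349609 to 9351489. It fell in both mutants and further in ORE50/ORC4. Wild-type replicates 1, 2, 3, 5 and 6 held 254.8, 247.4, 372.2, 102.3 and 79.8 estimated counts, or 11.9, 11.6, 15.0, 13.1 and 10.4 TPM. ORC4 held 79.8, 65.9, 72.6 and 66.6 counts (3.69, 3.33, 3.46 and 3.40 TPM), and ORE50/ORC4 held 18.6, 15.5, 10.7 and 18.3 counts (1.90, 1.62, 1.41 and 2.13 TPM). The 3 groups did not overlap in TPM.

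The log2 fold change of PGRP-LF was -1.89 (SE 0.14, edgeR adjusted p = 5.24e-07) in ORC4 and -2.72 (SE 0.16, edgeR adjusted p = 5.50e-08) in ORE50/ORC4 against wild type. Between ORE50/ORC4 and ORC4 it was -0.83 (SE 0.17, edgeR adjusted p = 0.00227), and -0.77 (edgeR adjusted p = 0.0380) with depth class in the model. The 3′ part of PGRP-LF shares 602 exonic bases with UGP, a gene on the opposite strand, and counts of PGRP-LF were fractional in 15 of 16 libraries. UGP, which encodes a UDP-glucose pyrophosphorylase, was at 129 ± 6.24 CPM (SD, n = 5) in wild type, 77.6 ± 12.2 (n = 4) in ORC4 and 69.6 ± 8.85 (n = 4) in ORE50/ORC4, and changed by -0.77 and -0.88 on the log2 scale (edgeR adjusted p = 0.000215 and 4.46e-05). PGRP-LF took 5.62% to 7.61% of the counts of the pair in wild type, 2.83% to 3.62% in ORC4 and 1.48% to 2.37% in ORE50/ORC4. Summed to 1 feature after seeing the data, the pair changed by -0.82 and -0.95 on the log2 scale against wild type (edgeR adjusted p = 0.00011 and 2.22e-05). ORE50/ORC4 against ORC4, the sum stood at -0.13 on the log2 scale (SE 0.12, edgeR adjusted p = 0.409).

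**Figure D2:**
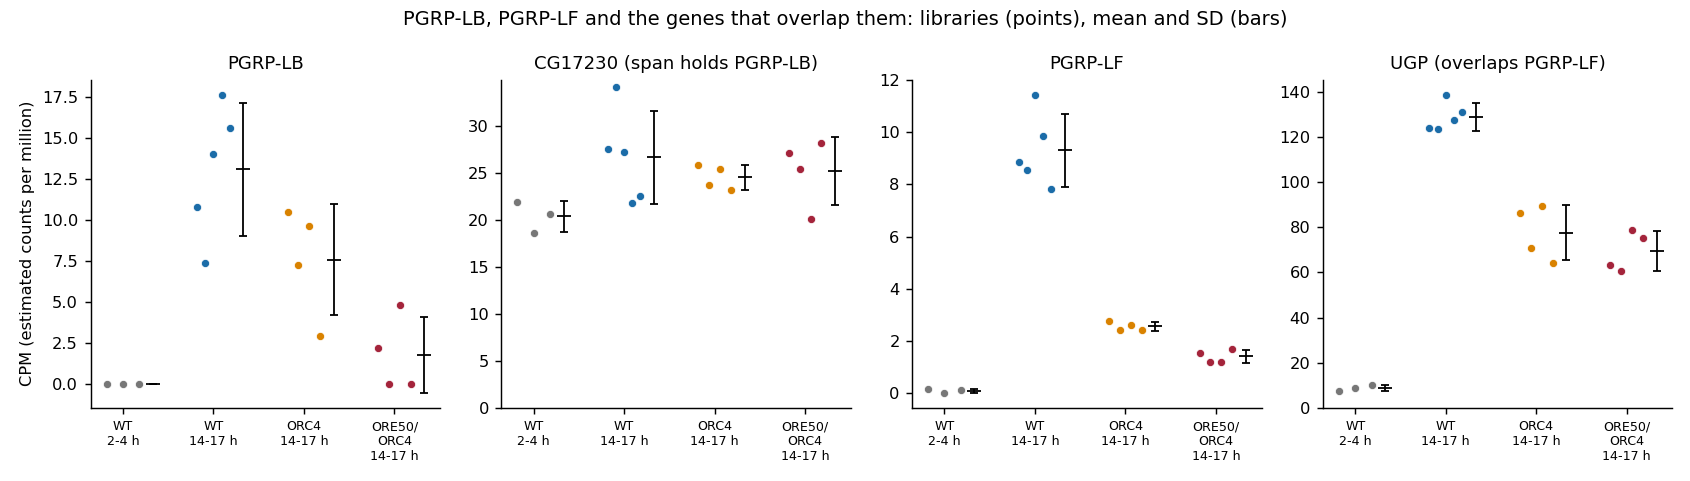
CPM (linear axes, a separate scale per panel) of PGRP-LB, of CG17230 whose span holds it, of PGRP-LF and of UGP which overlaps it, in every library of the 4 groups; points are libraries, bars the mean with its SD. CG17230 overlaps between the 3 groups of 14 to 17 h while PGRP-LB in ORE50/ORC4 (0 to 4.83 CPM) lies below wild type, and UGP and PGRP-LF are both lower in the mutants.

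The Imd receptor gene PGRP-LC (3L, plus strand, 9338810 to 9348336), which encodes the membrane receptor, fell by a small amount in both mutants. It held 7.24, 7.12, 7.80, 7.43 and 6.89 TPM in wild-type replicates 1, 2, 3, 5 and 6, from 293 to 1075 estimated counts. The ORC4 libraries held 6.16, 6.06, 5.89 and 6.17 TPM (665 to 739 counts), and the ORE50/ORC4 libraries held 5.62, 5.59, 4.79 and 5.86 TPM (201 to 305 counts). Every mutant library was below every wild-type library. The log2 fold change was -0.33 (SE 0.07) in each mutant, with edgeR adjusted p = 0.00368 in ORC4 and 0.00200 in ORE50/ORC4. Between the mutants the log2 fold change was 0.00 with an SE of 0.08 (edgeR adjusted p = 0.975).

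PGRP-LE, the receptor that also senses peptidoglycan inside cells, was not called in either mutant. It lies on the minus strand of X at 15801153 to 15803880. It held 28.4, 24.2, 26.9, 29.8 and 28.7 TPM in the 5 wild-type libraries (331 to 1004 counts), 26.6, 23.9, 23.8 and 21.7 TPM in ORC4 (637 to 865 counts) and 23.9, 24.4, 27.3 and 25.7 TPM in ORE50/ORC4 (311 to 352 counts). All 3 groups overlapped. The log2 fold change was -0.26 (SE 0.11, edgeR adjusted p = 0.0810) in ORC4 and -0.03 (SE 0.11, edgeR adjusted p = 0.822) in ORE50/ORC4. Without wild-type replicate 2, PGRP-LE was called lower in ORC4, at -0.32 on the log2 scale (edgeR adjusted p = 0.0364).

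PGRP-LA, a regulatory member known to promote Imd signalling in barrier epithelia, had its highest mean in ORE50/ORC4. It lies on the plus strand of 3L at 9334332 to 9338336, 473 bases from PGRP-LC, which in turn lies 1272 bases from PGRP-LF. The wild-type libraries held 10.04, 10.98, 7.67, 6.75 and 7.78 TPM (119 to 532 counts), those of ORC4 9.49, 9.89, 8.56 and 13.2 TPM (407 to 586 counts), and those of ORE50/ORC4 13.8, 13.1, 9.81 and 10.2 TPM (168 to 306 counts). The groups overlapped. The log2 fold change was 0.18 (SE 0.14, edgeR adjusted p = 0.358) in ORC4 and 0.52 (SE 0.14, edgeR adjusted p = 0.00814) in ORE50/ORC4. Against the 2 shallow wild-type libraries alone, PGRP-LA in ORE50/ORC4 rose by 0.74 on the log2 scale (edgeR adjusted p = 0.00674). In ORE50/ORC4 the 3 neighbours PGRP-LA, PGRP-LC and PGRP-LF, which share a strand and have no gene between them, thus had log2 fold changes of 0.52, -0.33 and -2.72.

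The 2 members upstream of Toll were scarce. PGRP-SA, a circulating sensor of Gram-positive bacteria (X, plus strand, 11561643 to 11562779), held 2 to 9 estimated counts in wild type at 14 to 17 h, 2 to 7 in ORC4 and 1 to 7 in ORE50/ORC4, or 0.570 ± 0.147 (SD, n = 5), 0.371 ± 0.190 (n = 4) and 0.807 ± 0.626 (n = 4) TPM. It did not pass the filter on low counts and was not tested. PGRP-SD, which aids PGRP-SA, lies at 7651180 to 7651900 on the plus strand of 3L inside an intron of CG32373, a gene of the same strand.

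PGRP-SD varied widely within groups. It held 26.7, 29.3, 17.5, 3.56 and 0 estimated counts in the wild-type replicates 1, 2, 3, 5 and 6 (4.03, 4.41, 2.27, 1.47 and 0 TPM), 4.94, 20.4, 27.1 and 53.0 in ORC4 (0.737, 3.31, 4.15 and 8.73 TPM), and 21.8, 18.7, 16.4 and 6.51 in ORE50/ORC4 (7.18, 6.30, 6.98 and 2.44 TPM). The groups overlapped. The log2 fold changes were 0.53 (SE 0.61, edgeR adjusted p = 0.536) in ORC4 and 1.16 (SE 0.64, edgeR adjusted p = 0.139) in ORE50/ORC4. PGRP-SD made up 0% to 3.19% of the summed CPM of PGRP-SD and CG32373 across the libraries of 14 to 17 h. The pair shares no exonic base. PGRP-SD also shares 35 exonic bases with CG7492, a gene on the opposite strand, and its counts were fractional in 12 of 16 libraries.

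**Figure D3:**
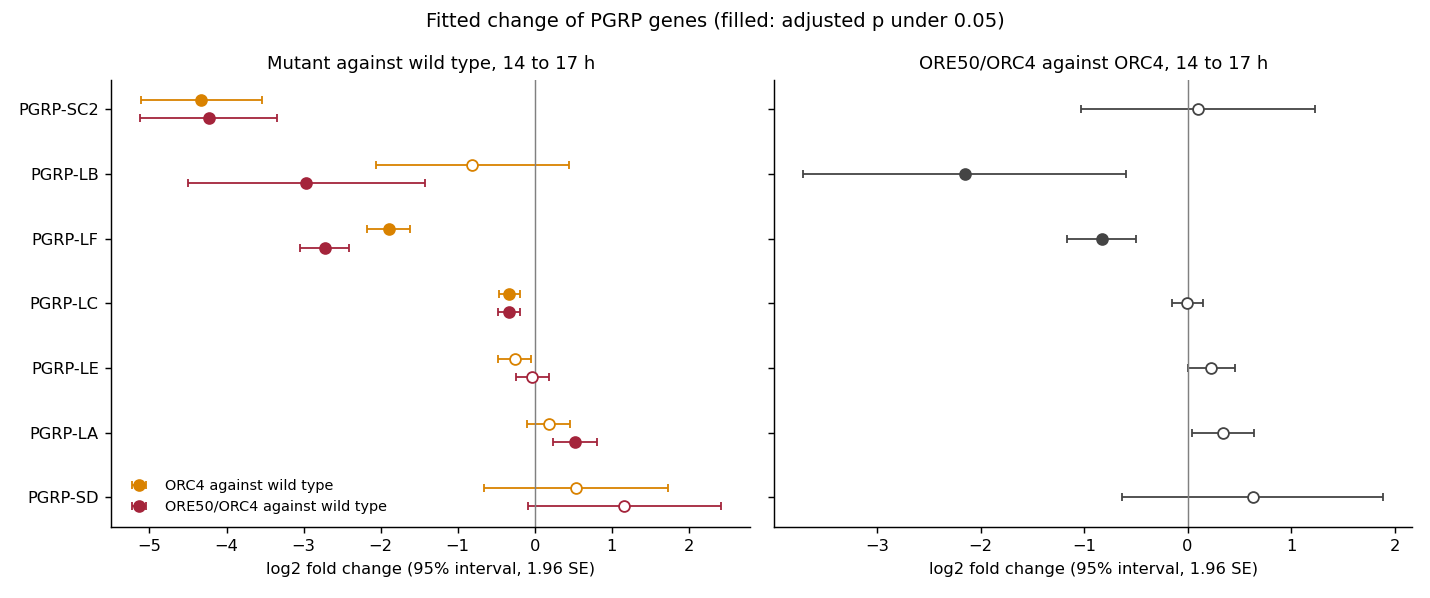
Fitted log2 fold changes of the 7 tested PGRP genes other than PGRP-SC1a, with 95% intervals, for each mutant against wild type (left) and for ORE50/ORC4 against ORC4 (right), all at 14 to 17 h; filled points have an edgeR adjusted p under 0.05. PGRP-SC2 and PGRP-LF lie far below 0 in both mutants, PGRP-LC lies at -0.33 in both, and PGRP-LA in ORE50/ORC4 lies at 0.52. PGRP-SC2 passed the filter on low counts only through wild type, so its direction against wild type was fixed by passing it.

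Of the 10 members, 8 passed the filter and were tested in every comparison. In ORC4 against wild type, 4 were called lower (PGRP-SC1a, PGRP-SC2, PGRP-LF and PGRP-LC) and 0 higher, where 32.7% of all 11431 genes tested were called, 17.2% lower and 15.5% higher. Those 4 were also the members whose ORC4 libraries were all under the lowest of wild type, as were 14.4% of all genes; 0 members were all above, against 13.4%. In ORE50/ORC4 against wild type, 5 members were called lower (the same 4 and PGRP-LB) and 1 higher (PGRP-LA), where 54% of all genes were called, 27% lower and 27% higher. The 5 lower members were below wild type without overlap, as were 23.6% of all genes; PGRP-LA overlapped, and 19.7% of all genes were above without overlap. Between ORE50/ORC4 and ORC4, 2 members were called lower (PGRP-LB and PGRP-LF) and 0 higher, against 17.4% and 19.9% of all genes, or 37.3% in either direction. PGRP-LF alone was lower without overlap, against 16.7% of all genes below and 14.3% above. The median log2 fold change over the 8 tested members was -0.57, -1.53 and 0.05 in these 3 comparisons, beside 0.0044, 0.011 and 0.034 over all genes, and was the same to 2 decimals with PGRP-SC1a at its ratio or floor. PGRP-SC1a, with at most 1 count in a mutant library, and PGRP-SC2, with at most 9, passed the filter only through wild type. The direction of both genes against wild type was therefore fixed by passing it. The 2 mutants share their wild-type libraries. Whether reads of PGRP-LF and PGRP-LB were shared with the overlapping genes was not tested.

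From 2 to 4 h to 14 to 17 h of wild-type development, all 8 tested members rose, where 48.1% of the 11636 genes tested were called higher, 41.8% lower and 89.9% in either direction. Groups did not overlap for 47.5% of genes above and 41.3% below. PGRP-SC1a, PGRP-LB, PGRP-LF, PGRP-LA and PGRP-SD, with 0 to 4.498 counts in each library of 2 to 4 h, passed the filter on low counts through the later age alone, so their direction was fixed by passing it. PGRP-LE, PGRP-SC2 and PGRP-LC held at least 13 counts in every library of 2 to 4 h. PGRP-SC2 held 22, 15 and 17 estimated counts there (3.00, 4.26 and 2.27 TPM), more TPM than in any mutant library of 14 to 17 h, and rose by 2.64 on the log2 scale (SE 0.41, edgeR adjusted p = 0.000138). PGRP-LE held 78, 21 and 89 counts (2.30, 1.29 and 2.57 TPM) and rose by 3.68 (SE 0.22, edgeR adjusted p = 1.04e-07).

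PGRP-LC held 21, 13 and 33 counts at 2 to 4 h (0.168, 0.217 and 0.258 TPM) and rose by 5.08 on the log2 scale (SE 0.15, edgeR adjusted p = 1.34e-09). PGRP-LF held 4.498, 0 and 3.28 counts and rose by 6.58 (SE 0.38, edgeR adjusted p = 7.45e-08). The remaining members were at or near 0 at the earlier age. PGRP-LA held 0, 0 and 1 counts, a ratio of 1187 between the ages (exact 95% interval 213 to 46900), and PGRP-SC1a held 1, 0 and 1 counts, a ratio of 39.3 (10.7 to 329). PGRP-LB, PGRP-SD and PGRP-SA were listed at 0 in all 3 libraries, so that their levels at 14 to 17 h were at least 306-fold, 17.9-fold and 6.04-fold higher with 3 counts over the group as the floor. These intervals and floors cover counting error only. With such genes at their ratio or floor, the median log2 fold change over the 8 tested members was 5.19, beside 0.18 over all genes, as a description only. The floors and folds also leave out reads that may be shared with an overlapping gene. Summed with CG17230, a choice made after seeing the data, PGRP-LB rose by 0.93 on the log2 scale (SE 0.11, edgeR adjusted p = 1.74e-05). PGRP-LF summed with UGP rose by 3.95 (SE 0.13, edgeR adjusted p = 1.75e-09). Whether reads were shared at 2 to 4 h was not tested.

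Genes with patterns like those of the members were named for the 3 members with the widest range of group means on the log2(CPM + 1) scale, namely PGRP-LA, PGRP-LC and PGRP-LB, over 16 libraries that share the age difference. For PGRP-LA they were CG13847 (Pearson r = 0.997), mex1 (0.997) and qless (0.997), with r of 0.883, 0.904 and 0.879 over the 13 libraries of 14 to 17 h. Of these mex1, a gene named for its midgut expression, had means of 54.0 ± 10.5 TPM (SD, n = 5) in wild type, 71.2 ± 11.6 (n = 4) in ORC4 and 94.1 ± 13.8 (n = 4) in ORE50/ORC4. For PGRP-LC they were Scgalpha (0.999), alphaTub85E (0.998) and Nepl15 (0.998), and Scgalpha, a sarcoglycan gene, was at 59.5 ± 2.53 (wild type), 44.8 ± 2.65 (ORC4) and 43.2 ± 2.59 (ORE50/ORC4) TPM. For PGRP-LB they were the maltase gene Mal-A6 (0.976), CG17930 (0.970) and CG5162 (0.960), and Mal-A6 was at 7.89 ± 2.61 (wild type), 4.33 ± 1.72 (ORC4) and 0.922 ± 0.543 (ORE50/ORC4) TPM. Over the 13 libraries of 14 to 17 h, r was 0.906, 0.860 and 0.830 for the 3 genes named for PGRP-LC. It was 0.958, 0.955 and 0.939 for the 3 named for PGRP-LB. These correlations are descriptions and carry no test.

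Digestive enzyme genes of the midgut, where the PGRP-SC genes are known to be made, were lower in both mutants, as were PGRP-SC1a and PGRP-SC2, whereas the amidase gene PGRP-LB was not called in ORC4. Of 22 listed Jonah and trypsin proteases, 20 were tested, and 18 were lower and 0 higher in each mutant. Over all genes tested, 17.2% were called lower and 15.5% higher in ORC4, and 27% each way in ORE50/ORC4. Their summed level was 1972 to 5829 TPM in wild type at 14 to 17 h, 359 to 755 in ORC4 and 394 to 474 in ORE50/ORC4, against 3.53 to 22.0 in wild type at 2 to 4 h. Wild-type replicate 1 had the highest sum (5829) and also the most PGRP-SC2, and replicate 2 the lowest sum (1972) and the least PGRP-SC2. Replicates 3, 5 and 6 did not keep the order of their sums (3674, 3240 and 3882), with PGRP-SC2 at 17.8, 20.13 and 20.06 TPM. The other amidase genes were not highest in replicate 1: PGRP-SC1a was highest in replicates 5 and 6 (11.7 TPM in each, with sums of 3240 and 3882), and PGRP-LB was highest in replicate 5 (5.27 TPM) and at 3.24 TPM in replicate 1. Both were lowest in replicate 2 (3.37 and 2.23 TPM). Several of these proteases have near-identical copies between which reads can be split. Among 6 genes listed as midgut transcription factors, of which wg encodes a secreted ligand, 2 were lower and 2 higher in ORC4, and 3 were lower and 2 higher in ORE50/ORC4. GATAe, a regulator of midgut genes, rose in both mutants by 0.29 and 0.37 on the log2 scale (edgeR adjusted p = 0.00915 and 0.00111). In turn wg fell in both by 0.41 and 0.33 (edgeR adjusted p = 0.00783 and 0.0146), and cad by 0.33 and 0.31 (edgeR adjusted p = 0.0090 and 0.0085). Jon99Fi, a Jonah protease gene, was at 361 ± 193 TPM (SD, n = 5) in wild type, 0.276 ± 0.331 (n = 4) in ORC4 and 0.136 ± 0.158 (n = 4) in ORE50/ORC4. Proteases near 0 in the mutants, such as Jon99Fi, passed the filter on low counts through wild type alone, so their direction was fixed by passing it. How many of the 18 this covers was not counted. The part of the midgut as a whole in the change of PGRP-SC1a and PGRP-SC2 was not tested.

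Markers of blood cells, fat body and trachea, which also make PGRPs or immune proteins, were counted beside them. The shares to set them against are those over all genes, 17.2% lower and 15.5% higher in ORC4 and 27% each way in ORE50/ORC4. Of 9 hemocyte genes, 3 were lower and 1 higher in ORC4, and 4 lower and 1 higher in ORE50/ORC4. NimC1, a phagocytosis receptor gene, fell by 0.57 and 1.05 on the log2 scale (edgeR adjusted p = 0.00238 and 1.88e-05). The 1 higher gene in each mutant was crq, at 0.23 and 0.44 on the log2 scale (edgeR adjusted p = 0.045 and 0.000635). The summed hemocyte level was 243 to 304 TPM in wild type, 230 to 271 in ORC4 and 182 to 291 in ORE50/ORC4. Of 5 tested fat body genes, Adh, the alcohol dehydrogenase gene, was lower in both mutants by 1.32 and 1.57 (edgeR adjusted p = 5.19e-06 and 8.69e-07), while Fbp1 was higher in ORC4 (3.39, edgeR adjusted p = 0.000549) and apolpp, the lipophorin gene, in ORE50/ORC4 (0.62, edgeR adjusted p = 0.00337). The summed fat body level was 583 to 807 TPM in wild type, 419 to 633 in ORC4 and 413 to 644 in ORE50/ORC4. Of 5 tracheal genes, serp, a chitin deacetylase gene, was the 1 lower in each mutant, and Gasp, a chitin-binding protein gene, was higher in ORE50/ORC4. Of 6 genes listed for the later age, 1 was lower and 1 higher in each mutant. Of 4 tested genes listed for the earlier age, 2 were lower in ORC4, 4 in ORE50/ORC4 and 0 higher in either. Not all of these genes differed between the ages in wild type. There elav stood at -0.13 on the log2 scale (edgeR adjusted p = 0.295) and bcd at -0.45 (edgeR adjusted p = 0.400). Yet bcd was among the 4 lower in ORE50/ORC4, at -5.73 (edgeR adjusted p = 0.000121). The part of these tissues and of developmental age in the PGRP values was not tested.

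**Figure D4:**
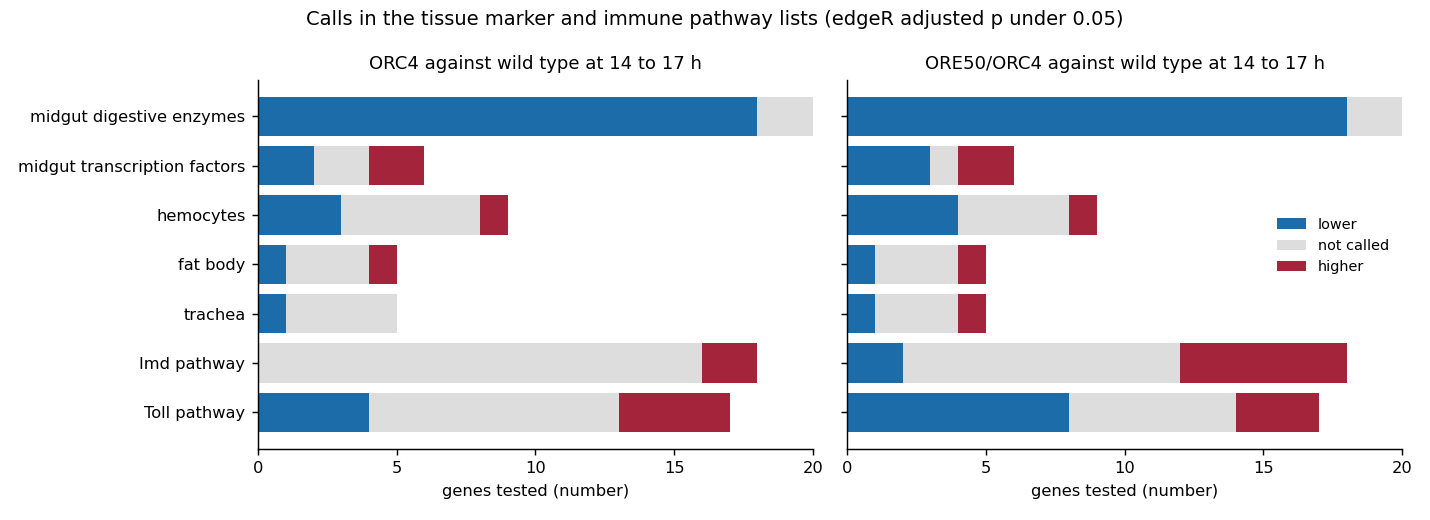
Number of tested genes called lower, not called and called higher in each tissue marker and immune pathway list, for ORC4 (left) and ORE50/ORC4 (right) against wild type at 14 to 17 h, by edgeR adjusted p under 0.05. The midgut digestive enzyme list has 18 of 20 genes lower in each mutant, while the Imd list has 0 and 2 of 18 genes lower. Over all genes tested, 17.2% were called lower in ORC4 and 27% in ORE50/ORC4. Proteases near 0 in the mutants passed the filter on low counts through wild type alone, so their direction was fixed by passing it.

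Genes downstream of the PGRP receptors were counted against the shares over all genes. Of all genes tested, 32.7% were called in ORC4 (17.2% lower, 15.5% higher) and 54% in ORE50/ORC4 (27% each way). Of 19 listed Imd pathway genes, 18 were tested, and 0 were lower and 2 higher in ORC4: key, the regulatory IKK subunit, at 0.46 (SE 0.14, edgeR adjusted p = 0.0254) and the deubiquitinase gene trbd at 0.31 (SE 0.06, edgeR adjusted p = 0.00204). The call on key was lost without wild-type replicates 1, 2 or 3 or ORC4 replicate 2 (edgeR adjusted p = 0.0512 to 0.103). In ORE50/ORC4, 2 were lower, the kinase gene IKKbeta at -0.36 (edgeR adjusted p = 0.0334) and the deubiquitinase gene scny at -0.31 (edgeR adjusted p = 0.0253), and 6 were higher. IKKbeta was no longer called without wild-type replicate 5 or 6 or ORE50/ORC4 replicate 2, 3 or 4 (edgeR adjusted p = 0.0535 to 0.0963), nor scny without wild-type replicate 5 or 6 or ORE50/ORC4 replicate 1 or 3 (edgeR adjusted p = 0.0618 to 0.0750). Diap2, an E3 ubiquitin ligase of the pathway, rose by 0.57 (SE 0.07, edgeR adjusted p = 3.68e-05). Rel, the NF-kappaB factor of the pathway, stood at -0.25 in ORC4 (SE 0.14, edgeR adjusted p = 0.173) and -0.01 in ORE50/ORC4 (SE 0.14, edgeR adjusted p = 0.955) on the log2 scale. The median over the list was 0.078 in ORC4 and 0.095 in ORE50/ORC4. Between the ages, 7 Imd genes were lower and 9 higher at 14 to 17 h, where 41.8% of all genes tested were lower and 48.1% higher. The gene pirk, which restrains PGRP-LC signalling, rose by 5.41, the most of the Imd genes.

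Of 18 listed Toll pathway genes, 17 were tested, with 4 lower and 4 higher in ORC4 and 8 lower and 3 higher in ORE50/ORC4. Over all genes tested, the shares were 17.2% lower and 15.5% higher in ORC4 and 27% each way in ORE50/ORC4. GNBP1, which works with PGRP-SA in sensing Gram-positive bacteria, fell by 1.11 (SE 0.22, edgeR adjusted p = 0.00181) and 1.69 (SE 0.24, edgeR adjusted p = 9.13e-05). Its relative GNBP2 fell by 2.29 (SE 0.18, edgeR adjusted p = 7.53e-07) and 2.00 (SE 0.19, edgeR adjusted p = 3.25e-06). The ligand gene spz rose by 0.81 (SE 0.11, edgeR adjusted p = 7.38e-05) and 0.94 (SE 0.11, edgeR adjusted p = 1.62e-05). The list medians were -0.05 and -0.28.

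The antimicrobial peptide genes, the output of both pathways, were near the floor at 14 to 17 h. None of the 16 listed genes passed the filter on low counts in that fit, so no test was made. Their summed level was 0.588 to 1.65 CPM in wild type, 0.728 to 1.42 in ORC4 and 0.276 to 0.886 in ORE50/ORC4. In the comparison of ages, 1 was tested: Drs, which encodes drosomycin, fell by 1.58 on the log2 scale at 14 to 17 h (SE 0.50, edgeR adjusted p = 0.0124).

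The other 3 family genes were not called in either mutant or could not be judged. PGRP-LD shares its whole span with Pmi, and the counts of the pair were divided at 50% in every library, so its values (17.9 ± 1.83, 19.1 ± 0.998 and 16.9 ± 0.961 TPM in the 3 groups of 14 to 17 h) cannot be told apart from those of Pmi. PGRP-SB1, a secreted amidase gene, held 2 to 14 counts in wild type, 8 to 20 in ORC4 and 3 to 6 in ORE50/ORC4, and stood at 0.72 (SE 0.31, edgeR adjusted p = 0.0912) and 0.36 (edgeR adjusted p = 0.535) on the log2 scale. PGRP-SB2, which lies 10 bases from it, held at most 6 counts in a library and was not tested.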

How the data were processed

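Polyadenylated RNA of 16 whole-embryo libraries was analysed. The submitters' processing notes name CASAVA 1.8.2, kallisto and the build dm6; strandedness and annotation are not given in the sources used here. The authors deposited, per gene and library, an estimated count and a TPM value, with a length and an effective length, per the file headers. The listed length equalled the gene span with introns for 99.3% of genes matched to the Ensembl dm6 annotation (17625 of 17753), so TPM is per length of span. Between 19.3% and 22% of estimated counts were fractional; they were rounded to whole numbers and tested with edgeR 4.0.16 in R 4.3.3 (quasi-likelihood test, TMM scaling, filterByExpr with a minimum of 10 counts, Benjamini-Hochberg adjustment over all genes tested, threshold 0.05). The 13 libraries of 14 to 17 h shared 1 fit, and the 8 wild-type libraries another. SE is the log2 fold change divided by the square root of the F statistic. CPM is the estimated count scaled to the library total. The tests were also run on simulated counts that gave every gene the same dispersion (spread between libraries). That check does not cover genes that vary widely between libraries, such as PGRP-LB and PGRP-SD. Alternatives used DESeq2 1.42.0 and limma 3.58.1 on log2(TPM + 1) and log2(TPM + 0.1), among other settings. No libraries of a group matched within sampling noise (chi-square per degree of freedom 5.46 to 118). Same-numbered libraries deviated together in some pairs only (r above 0.1 in 5 of 13 pairs, range -0.14 to 0.41). No block was used in the main fits, and whether the numbers pair the libraries is not settled by these values. The labels do not say that replicates came from separate cultures or collections, so p-values measure the spread between these libraries only. Replicates carry the numbers in the sample titles. Members and gene lists were chosen with earlier results of these data known. The 10 members are always named; from each list, at most the 2 lowest and 2 highest called genes per comparison are. A floor is 3 counts; intervals cover counting error only, since PCR copies were not marked.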

Additional observations from a re-analysis of the deposited data

Results flagged for a closer look

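Of 38 groups of 4 or 5 libraries examined with Dixon's test at the 95% level, 2 held a library far from the others, where chance gives about 1 in 20 groups. PGRP-SC1b was at 0.0361 CPM in ORC4 replicate 4 and at 0 in the other 3 ORC4 libraries. PGRP-SB2 was at 0.0756 CPM in ORE50/ORC4 replicate 2 and at 0 in the other 3 ORE50/ORC4 libraries. Each value is a single count.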

How the results depend on the processing

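The member calls of both mutants against wild type and of the 2 ages kept their direction under every alternative in which the gene was tested. Between the mutants, 2 members were called lower in the fit used here and 1 under DESeq2, without the filter, with only the 2 groups (the same libraries as those of the block, without it) and with depth class as a covariate, because PGRP-LB was lost (edgeR or DESeq2 adjusted p = 0.136, 0.0534, 0.0946 and 0.0770). With that covariate 1 was called higher (PGRP-LA, 0.66, edgeR adjusted p = 0.0481). Leaving out 1 library gave 1 to 2 lower and 0 to 1 higher; PGRP-LA was called without ORC4 replicate 4. Whether the replicate numbers pair the libraries is not known. For ORC4 against wild type, 3800 genes were called with a block on shared numbers and 3118 in the same libraries without it. Between the mutants these were 3037 and 3515, and between the ages 10406 and 10560. With the replicate block on libraries that share numbers, 4456 genes were called for ORE50/ORC4 against wild type, and 4110 in those libraries without the block, against 6170 in all; there PGRP-LB (-2.27, adjusted p = 0.0633) and PGRP-LA (0.45, 0.0541) were not called without the block and PGRP-SD was (1.03, 0.0387). Values that changed sign, uncalled except for Fbp1, were PGRP-LA in ORC4 (-0.031 with the block, -0.039 without it), PGRP-SD in ORC4 (-0.49 and -0.40; -0.045 to 0.88 leaving out a library), PGRP-LE in ORE50/ORC4 (0.023 and 0.025; -0.091 to 0.033), CG17230 in ORE50/ORC4 (0.16 against shallow wild type; -0.13 to 0.033 leaving out a library), and, between the mutants, PGRP-SC2 (-0.087 and -0.25 with limma on TPM, -0.075 with depth class; -0.56 to 0.35), PGRP-LC (-0.045 to 0.035), PGRP-SB1 (0.42 with depth class), CG17230 (-0.046 and -0.073 with limma) and Fbp1 (1.87 with depth class, where it had been called lower). With the filter on a mean of 10, PGRP-SC1a was not tested in the mutants nor PGRP-SD between the ages; PGRP-SC1a was also not tested in ORE50/ORC4 where only that mutant and wild type were fitted. On TPM with limma the share of higher genes among all called moved from 50% to 38.1% and 38% for ORE50/ORC4 against wild type and from 53.3% to 24% and 23.5% between the mutants, and to 40.3% there with the block. The cause of these differences was not tested. Depth limits PGRP-SA, PGRP-SC1b and the antimicrobial peptide genes, which had too few counts to test.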
